A study of Mus musculus with 8 samples.

Results

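Transcript levels in mouse malignant peripheral nerve sheath tumours were compared between the 4 arrays from rapamycin-treated samples and the 4 arrays from samples without rapamycin, which together are all 8 of the 8 arrays of the study. The 4 arrays with the drug are rapamycin arrays 1 and 2 and combination arrays 1 and 2. The 4 without it are vehicle arrays 1 and 2 and PD-0325901 arrays 1 and 2. The MEK inhibitor PD-0325901 was given to 2 of the 4 groups of 2 arrays each, 1 on each side of the comparison, so its presence is balanced. The samples are primary tumours of the model the labels name NPcis, a mouse used as a model of tumours that lose Nf1; the labels used here list no further alleles and name no host tissue besides the tumour. Rapamycin was injected into the peritoneum at 5 mg/kg. PD-0325901 was dosed at 1.5 mg/kg by a route written as OG in the labels, and the treatments lasted 14 hours. Whether the arrays of a group come from separate animals is not given in the sources used here, so p-values measure only the spread between these samples. The arrays differed in sex-linked transcripts within the PD-0325901 and combination groups, and in adipocyte and skeletal muscle scores within the rapamycin group, all given below. Whether the spread in the vehicle and rapamycin groups lies between animals or within a single animal was not tested.

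Rapamycin binds the immunophilin encoded by Fkbp1a, and the pair docks on the kinase mTOR within the complex mTORC1. That complex joins amino acid, oxygen and growth factor signals to cell growth: it promotes ribosome assembly and translation, raises the output of the transcription factors ATF4, HIF and SREBP on amino acid supply, glycolysis and lipid synthesis, and holds back autophagy and the insulin receptor substrates. Tumours without the Ras-inactivating protein neurofibromin, the product of Nf1, are known for active Ras signalling to both ERK and mTOR. The gene groups described here follow those branches.

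No gene passed an adjusted p of 0.05 between the arrays with and without rapamycin in limma's moderated test with Benjamini-Hochberg adjustment over 19938 genes (0 called, percentage called 0), and the smallest adjusted p was 0.676. At an unadjusted p under 0.05 there were 1098 genes, 591 higher with rapamycin (2.96% of all genes) and 507 lower (2.54%), against 997 that a uniform spread of p-values would give. A fit that also held a term for PD-0325901 called 0 genes (1272 at an unadjusted p under 0.05), as did the main effect in a fit of 4 group means (1107). The 4 values with rapamycin lay wholly above the 4 without it for 282 genes (1.41%) and wholly below for 386 (1.94%). Every gene named as higher or lower in the following is therefore described by its values. The rapamycin against vehicle difference and the combination against PD-0325901 difference share no array; across all genes they correlated at 0.18, and 11511 genes (57.7%) had the same sign in both. Genes are not independent replicates, and no test is attached to that share.

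Some arrays stood apart in ways the treatment labels do not name. The female-specific transcript Xist was at 11.58, 10.70, 11.54 and 11.47 log2 on rapamycin arrays 1 and 2, PD-0325901 array 2 and combination array 2, and at 5.91 to 7.09 on the other 4. The Y-linked Eif2s3y showed the reverse, at 8.23 to 9.81 on vehicle arrays 1 and 2, PD-0325901 array 1 and combination array 1 and at 5.06 to 5.60 elsewhere. Combination array 1 held the highest Eif2s3y level and the only intermediate Xist level, 7.09. Of the arrays with high Y-linked transcripts, 1 had rapamycin and 3 did not; of those with low Y-linked transcripts, 3 had it and 1 did not. The rapamycin against vehicle difference is wholly split along this line, so in it the drug and the sex-linked pattern cannot be told apart. Differences within each set of arrays are given beside the main groups below as "within high-Y" and "within low-Y" values. The high-Y values set combination array 1 against vehicle arrays 1 and 2 and PD-0325901 array 1. The low-Y values set rapamycin arrays 1 and 2 and combination array 2 against PD-0325901 array 2. PD-0325901 is thus not balanced in them: it weighs on the side with rapamycin in the first and without it in the second. In a gap between these values, the sex-linked pattern, PD-0325901 and single arrays cannot be told apart. A fit with a term for the Y-linked pattern, added after the data were seen, called 0 genes and left 710 at an unadjusted p under 0.05.

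**Figure D1:**
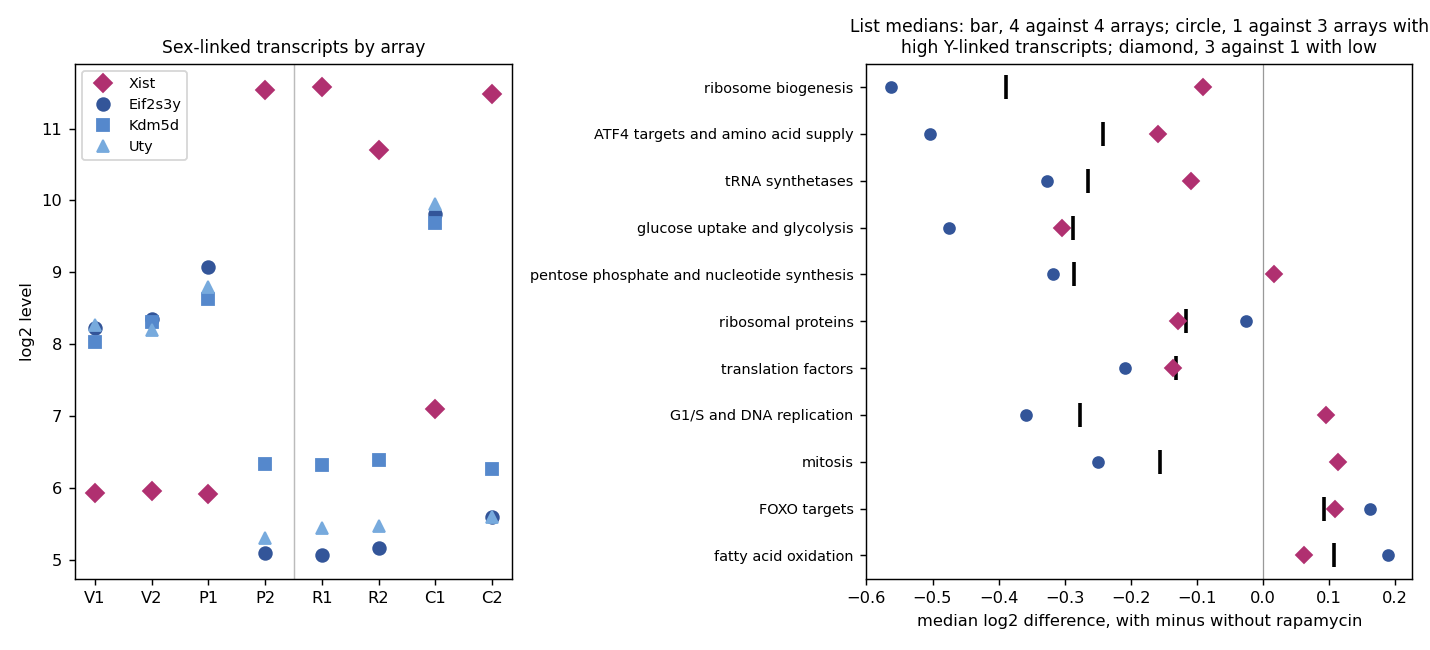
Levels of Xist and of 3 Y-linked transcripts on each of the 8 arrays (left, log2, deposited scale), with the 4 rapamycin-treated arrays right of the line, and the median log2 difference of 11 gene lists (right) over all arrays (bars), over the arrays with high Y-linked transcripts (circles) and over those with low ones (diamonds). The 4 arrays highest in Xist are the 4 low in Eif2s3y, Kdm5d and Uty, and 3 of them had rapamycin. PD-0325901 is balanced over all 8 arrays but not within either set.

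Scores of marker lists for host cell types also differed between single arrays. A list score is the mean of the members' log2 values, each centred on its gene's mean over the 8 arrays. The adipocyte score (10 markers) was 1.74 on rapamycin array 1 and -0.42 to 0.10 on the other 7, with Adipoq, the adipocyte hormone adiponectin, at 10.26 there and at 6.26 to 6.99 elsewhere. The skeletal muscle score (12 markers) was 1.68 on rapamycin array 2, 0.72 on combination array 2 and -0.82 to 0.04 on the other 6. Mast cell markers scored 1.26 and endothelial markers 0.63 on rapamycin array 1, and erythroid markers 1.20 on PD-0325901 array 2. In bulk tissue, fewer cells of a type and less RNA per cell cannot be told apart. Of the Schwann cell and neural crest markers 13 of 15 were measured, 4 higher and 9 lower with rapamycin, with a median of -0.06 and 0 at an unadjusted p under 0.05 in limma. Sox10, the transcription factor of the lineage, averaged 7.95 with and 8.02 without rapamycin, and Nes, an intermediate filament of precursor cells, 9.70 on both sides. The sides did not overlap in 1 member each way (7.69%, against 1.41% of all genes higher and 1.94% lower): the neurotrophin receptor Ngfr averaged 8.55 and 8.43, and S100b 7.14 and 7.23. Differences in the list ran from -0.42 in Gap43, a growth cone protein, to 0.85 (SE 0.90) in Sox2, a progenitor factor that was at 9.67 and 10.17 on rapamycin array 2 and combination array 2, at 9.13 on vehicle array 2 and at 6.74 to 7.16 on the other 5. The deposited table gives no detection call, so these levels do not say by themselves whether a marker is present. Correlation between arrays was 0.961 to 0.986 within a side and 0.963 to 0.985 between sides.

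**Figure D2:**
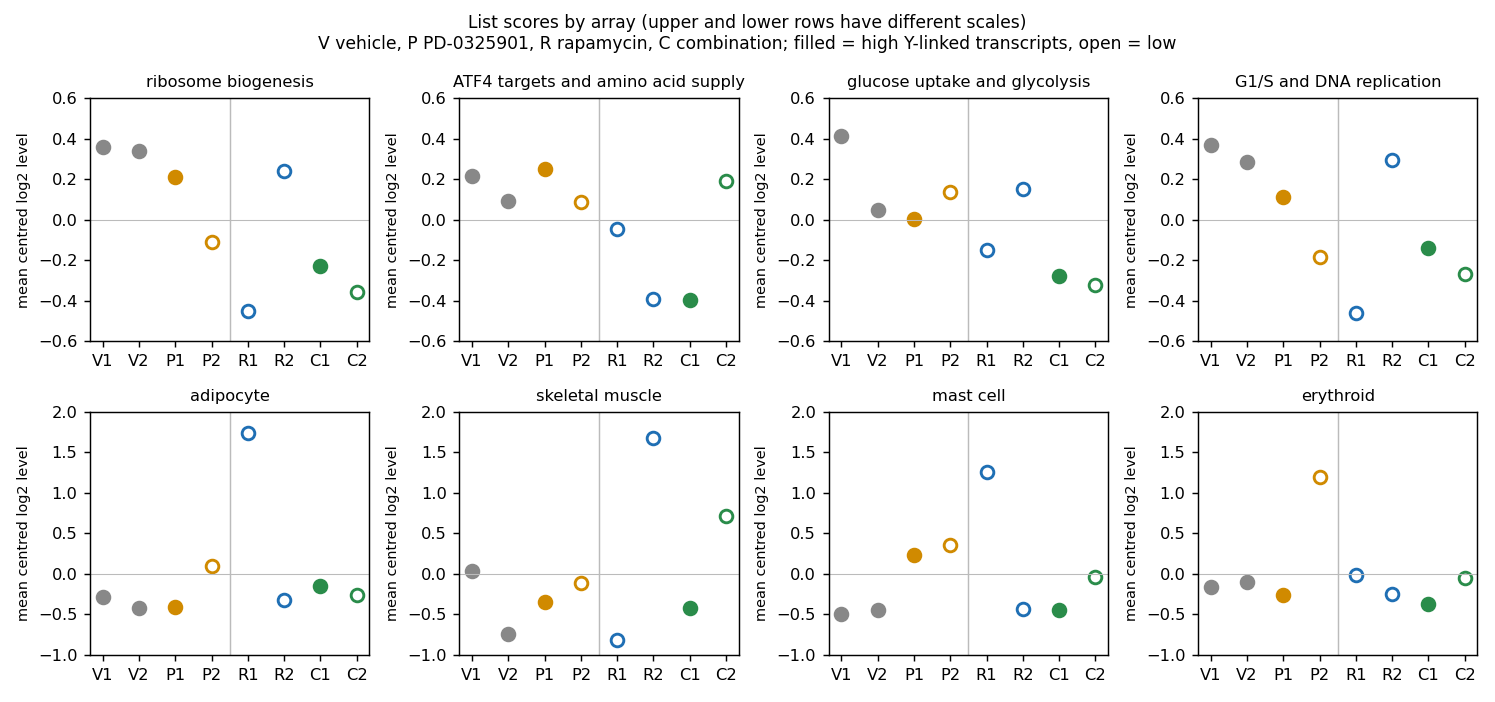
Scores of 8 gene lists on each array (mean of the members' log2 values after centring each gene on its mean over the 8 arrays), on different vertical ranges in the upper and lower rows. The adipocyte score stands at 1.74 on rapamycin array 1 and the skeletal muscle score at 1.68 on rapamycin array 2, while combination array 2 has a skeletal muscle score of 0.72.

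Genes of amino acid supply that answer to ATF4 lay lower in the tumours with rapamycin, none past the adjusted threshold. Of the 23 measured members of this list, 22 were lower with rapamycin, 6 of them at an unadjusted p under 0.05 (26.1%, against 2.54% of all genes), and in 4, Cth, Phgdh, Asns and Psat1, the sides did not overlap (17.4%, against 1.94%). The median difference was -0.24 log2, against -0.01 over all genes. Several of these promoters hold a match to the C/EBP-ATF element, to which ATF4 binds with a C/EBP partner. Some of the matching stretches are shown first, with those of the tRNA synthetase genes Gars and Tars. They come from the RefSeq promoter table (build GRCm38.p6), are written 5′ to 3′ on the strand of the gene, and have the match to TGATGNAA or its reverse complement in capitals. Asns lies at chr6:7693210-7693258 on the minus strand, Slc7a11 at chr3:50443646-50443705 (minus), Chac1 at chr2:119351023-119351082 (plus), Gars at chr6:55037945-55038000 (plus) and Tars at chr15:11399659-11399699 (minus).
Asns: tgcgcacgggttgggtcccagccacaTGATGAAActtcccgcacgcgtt
Slc7a11: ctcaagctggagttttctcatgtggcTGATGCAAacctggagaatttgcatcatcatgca
Chac1: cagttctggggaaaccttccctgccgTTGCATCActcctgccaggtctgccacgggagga
Gars: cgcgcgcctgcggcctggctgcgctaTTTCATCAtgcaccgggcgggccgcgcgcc
Tars: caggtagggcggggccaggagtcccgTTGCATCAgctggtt
The match begins 23 bases upstream of the annotated start in Asns and 193 bases upstream in Chac1; the Slc7a11 stretch holds a further match, on the opposite strand and left in lower case. In the 250 bases upstream of the start, searched on both strands, TGATGNAA occurred in 7 of 25 promoters of the list (28.0%; 21 genes matched by symbol), in 3 of 11 tRNA synthetase promoters (27.3%), in 0 of 31 ribosome biogenesis promoters and in 3.45% of all 32851 promoters. This 8-letter form was chosen after the data were seen. The longer TGATGNAAT, which contains it, occurred in 1 of the 25 (4.0%), in 2 of the 11 (18.2%) and in 0.816% of all promoters. A match describes these letters only. The promoters of Psat1 and Phgdh held no TGATGNAA in this window. Those of Atf3, Pck2 and Vldlr, not shown, held a match, and these genes differed by -0.07, -0.17 and -0.24. Of the measured list genes with a match, Asns alone had an unadjusted p under 0.05 in limma. The E-box CACGTG and the sterol element TCACNCCAC were searched in the same way. CACGTG occurred in 1 of the 25 (4.0%), 10 of 30 lysosome and autophagy promoters (33.3%), 7 of 27 translation factor promoters (25.9%) and 6.02% of all promoters. TCACNCCAC occurred in 1 of 21 sterol and fatty acid synthesis promoters (4.76%) and in 1.05% of all.

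Asns encodes asparagine synthetase, which makes asparagine from aspartate. Its levels were 10.64, 9.72, 9.92 and 10.76 on rapamycin arrays 1 and 2 and combination arrays 1 and 2, the order used for all values with rapamycin, and 11.23, 11.19, 11.33 and 10.82 on vehicle arrays 1 and 2 and PD-0325901 arrays 1 and 2, the order for values without it. The sides did not overlap, but combination array 2 and PD-0325901 array 2 stood only a small step apart, at 10.76 and 10.82. The difference was -0.88 (SE 0.25; limma, adjusted p = 0.851 after Benjamini-Hochberg adjustment), -1.03 for rapamycin against vehicle and -0.73 for the combination against PD-0325901. Within high-Y arrays it was -1.33 and within low-Y arrays -0.44.

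Cth, the enzyme that releases cysteine from cystathionine, was at 8.02, 7.14, 7.56 and 7.81 with rapamycin and at 8.80, 8.29, 9.25 and 8.26 without. Its difference of -1.02 (SE 0.27, limma adjusted p = 0.819) was the largest of the list, with -0.97 for rapamycin against vehicle and -1.07 for the combination against PD-0325901. Phgdh, which commits a glycolytic intermediate to serine, was at 9.79, 10.04, 9.94 and 9.89 with rapamycin and at 10.65, 10.23, 10.46 and 10.11 without (difference -0.45, SE 0.13). For both genes PD-0325901 array 2 was the array without rapamycin closest to the side with it.

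Psat1, the next enzyme of serine synthesis, was at 9.28, 9.37, 8.83 and 9.91 with rapamycin and at 10.59, 9.96, 10.00 and 9.92 without (difference -0.77, SE 0.24). The sides touched: combination array 2 read 9.91 and PD-0325901 array 2 read 9.92. Slc7a5, the large neutral amino acid transporter, was at 10.89, 10.97, 10.95 and 11.20 with rapamycin and 11.86, 11.18, 11.75 and 11.38 without (-0.54, SE 0.16), with an overlap between combination array 2 and vehicle array 2. Atf4 itself differed by -0.26 (SE 0.11), whereas Trib3 and Ddit3, targets tied to its stress response, differed by -0.04 and -0.09, and Chac1, a glutathione-degrading stress target, by -0.13. Slc7a11, the cystine transporter whose promoter is shown above, ranged from 6.63 on combination array 1 to 8.78 on combination array 2 and differed by -0.55 (SE 0.40), a difference smaller than the range of the arrays with rapamycin.

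The list score was lowest on combination array 1 and rapamycin array 2, at -0.40 and -0.39, and was 0.19 on combination array 2, inside the range of the arrays without the drug (0.09 to 0.25). Of the 23 members, 16 were lower both for rapamycin against vehicle and for the combination against PD-0325901. Of all 19938 genes, 10720 were lower with rapamycin, and 6381 were lower in both of these comparisons. The list's median was -0.31 without and -0.18 with PD-0325901, and -0.50 within high-Y and -0.16 within low-Y arrays. Without rapamycin array 2 it was -0.15. ATF4 also drives tRNA synthetase genes, which charge tRNAs with amino acids. Of 16 measured, 13 were lower, 5 at an unadjusted p under 0.05 (31.2%, against 2.54% of all genes), and in 4, Yars, Gars, Cars and Vars, the sides did not overlap (25%, against 1.94%); the median was -0.27. Yars, for tyrosine, was at 10.00, 9.83, 9.74 and 10.09 with rapamycin and 10.54, 10.42, 10.58 and 10.16 without (-0.51, SE 0.12, limma adjusted p = 0.818). Gars, for glycine, was at 10.47, 11.03, 10.84 and 10.83 with and at 11.13, 11.19, 11.15 and 11.18 without, so the arrays without rapamycin spanned far less than those with it (-0.37, SE 0.11). Cars differed by -0.39 and Vars by -0.42, while Iars, Wars and Qars lay within 0.05 of 0. The median of these 16 was -0.33 within high-Y and -0.11 within low-Y arrays.

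**Figure D3:**
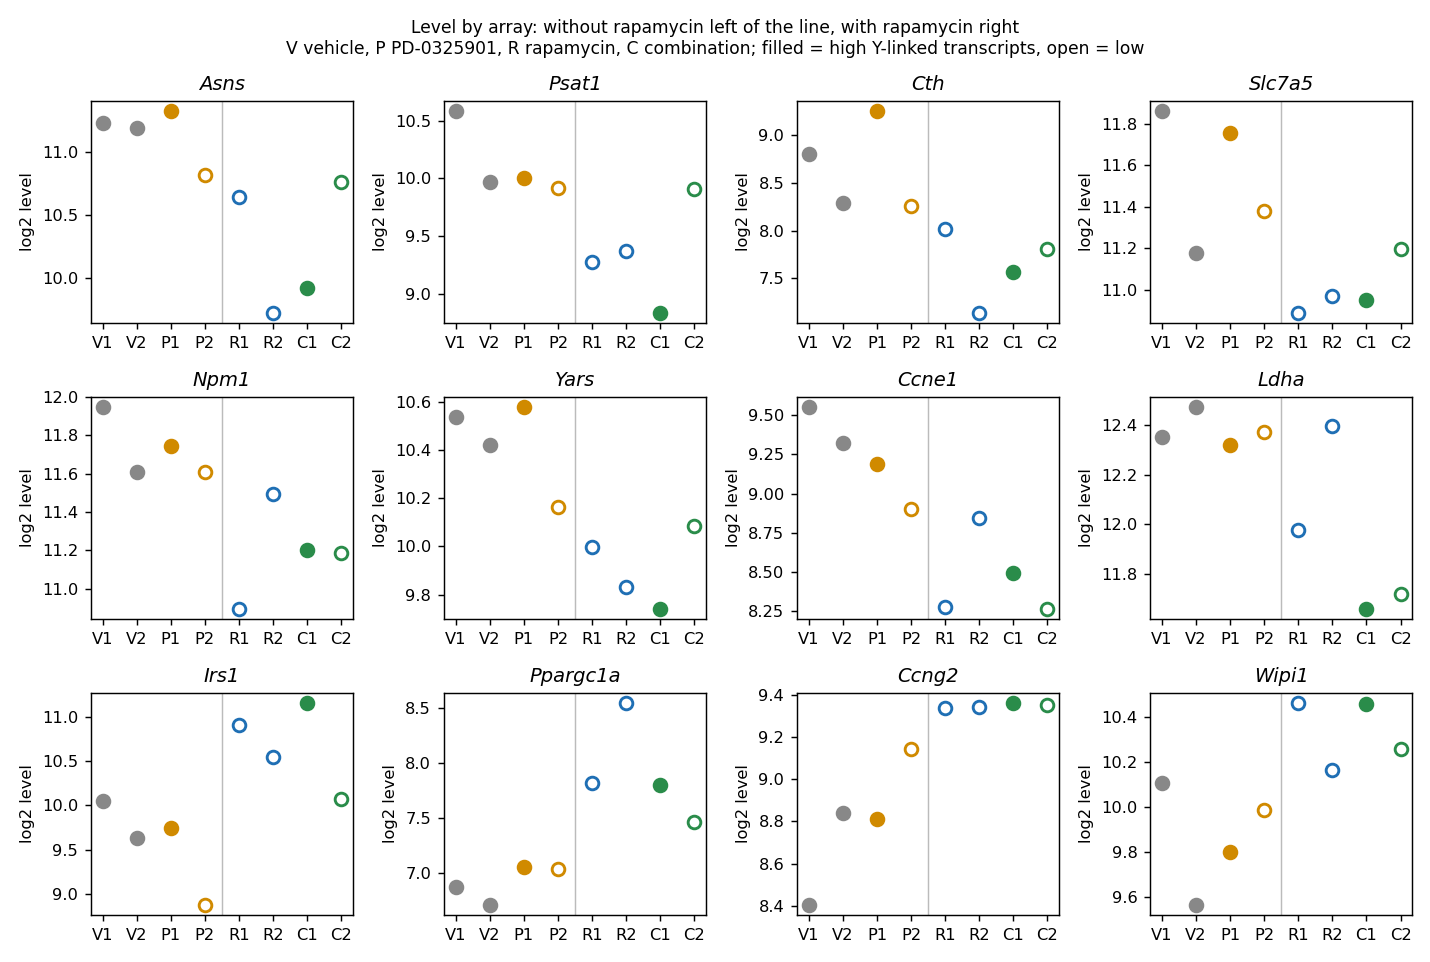
Level of 12 genes on each array (log2, deposited scale; 1 point per array, each panel with its own range), with the 4 arrays without rapamycin left of the line and the 4 with it right of it, and filled points for arrays with high Y-linked transcripts. Asns and Cth lie lower on all 4 rapamycin-treated arrays and Irs1 lies higher; none passed the adjusted threshold.

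Ribosome biogenesis genes, which make and process ribosomal RNA in the nucleolus, had the highest share of members past an unadjusted p of 0.05 among the lists described. All but 1 of the 30 members were lower with rapamycin, 11 of them at that threshold (36.7%, against 2.54% of all genes), and the median difference was -0.39. The exception was Ubtf, an RNA polymerase I factor, at 0.10. The same 29 were lower both for rapamycin against vehicle (list median -0.43) and for the combination against PD-0325901 (-0.34). Npm1, the abundant nucleolar chaperone nucleophosmin, was at 10.89, 11.49, 11.20 and 11.19 with rapamycin and 11.95, 11.61, 11.74 and 11.61 without, with no overlap (-0.53, SE 0.14, limma adjusted p = 0.819). Gnl3, the nucleolar GTPase nucleostemin, was at 9.08, 9.71, 9.39 and 9.54 with and at 10.24, 10.24, 9.95 and 9.76 without, again with no overlap (-0.62, SE 0.16). Nucleolin, Ncl, was the third member whose sides did not overlap (-0.33, SE 0.11), which makes 10% of the list against 1.94% of all genes.

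Among the other members, Nolc1, a chaperone of small nucleolar ribonucleoproteins, differed by -0.55 (SE 0.15), Wdr43, a component of the early processing machinery, by -0.63 (SE 0.20), and the fibrillarin gene Fbl by -0.46 (SE 0.16). Wdr43 showed the overlap seen in most of these genes: it was at 9.46, 10.29, 10.07 and 9.93 with rapamycin and 10.74, 10.87, 10.39 and 10.27 without, rapamycin array 2 lying above PD-0325901 array 2. The same array was the highest with rapamycin for the whole list, with a score of 0.24 against -0.45, -0.23 and -0.36 on the other 3, and PD-0325901 array 2, the low-Y array without rapamycin, was the lowest without rapamycin at -0.11. The list's median was -0.56 within high-Y arrays (1 against 3) and -0.09 within low-Y arrays (3 against 1), and -0.29 with a term for the Y-linked pattern. Leaving out single arrays moved it between -0.55 and -0.32. Myc, a regulator of these genes, differed by -0.27 (unadjusted p = 0.27 in limma, adjusted p with Benjamini-Hochberg 0.922).

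Structural ribosomal proteins and translation factors had smaller median differences. Of 36 ribosomal protein genes measured, 33 were lower, 4 at an unadjusted p under 0.05 (11.1%, against 2.54% of all genes), with a median of -0.12. Rps20, a protein of the small subunit, was at 12.41, 12.41, 12.47 and 12.54 with rapamycin and 12.62, 12.72, 12.73 and 12.85 without (-0.27, SE 0.07), and Rplp2, of the stalk of the large subunit, was at 9.06, 9.15, 8.99 and 9.0 with and 9.25, 9.25, 9.35 and 9.45 without (-0.28, SE 0.07). Both had a step between the sides and little spread within them. Rps3 was the third without overlap (-0.29, SE 0.10), which makes 8.33% of the list against 1.94% of all genes. Without rapamycin array 1 the list's median was -0.05. Ribosomal protein genes have many processed pseudogenes, and a probe set can read more than 1 copy, so single members are uncertain.

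Of 21 translation factors, 18 were lower, 4 at an unadjusted p under 0.05 (19%, against 2.54% of all genes), with a median of -0.13. Eif3c, a subunit of the initiation complex that recruits the small ribosomal subunit, was at 11.13, 11.28, 10.96 and 11.09 with rapamycin and 11.29, 11.30, 11.43 and 11.40 without (-0.24, SE 0.08). Eif3a differed by -0.27, Eif2s2 by -0.38 and Eif6 by -0.31. Eif3i, a further subunit of the same complex that was not on the list, had the second smallest p of the lower genes named by the rule: it was at 10.25, 10.40, 10.36 and 10.12 with rapamycin and 10.76, 10.88, 10.82 and 10.75 without, a difference of -0.52 (SE 0.08, limma adjusted p = 0.718). Its difference was -0.50 without and -0.54 with PD-0325901, and -0.46 and -0.49 within high-Y and low-Y arrays. The elongation factors Eef1a1 and Eef2 differed by 0.03 and 0.02.

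**Figure D4:**
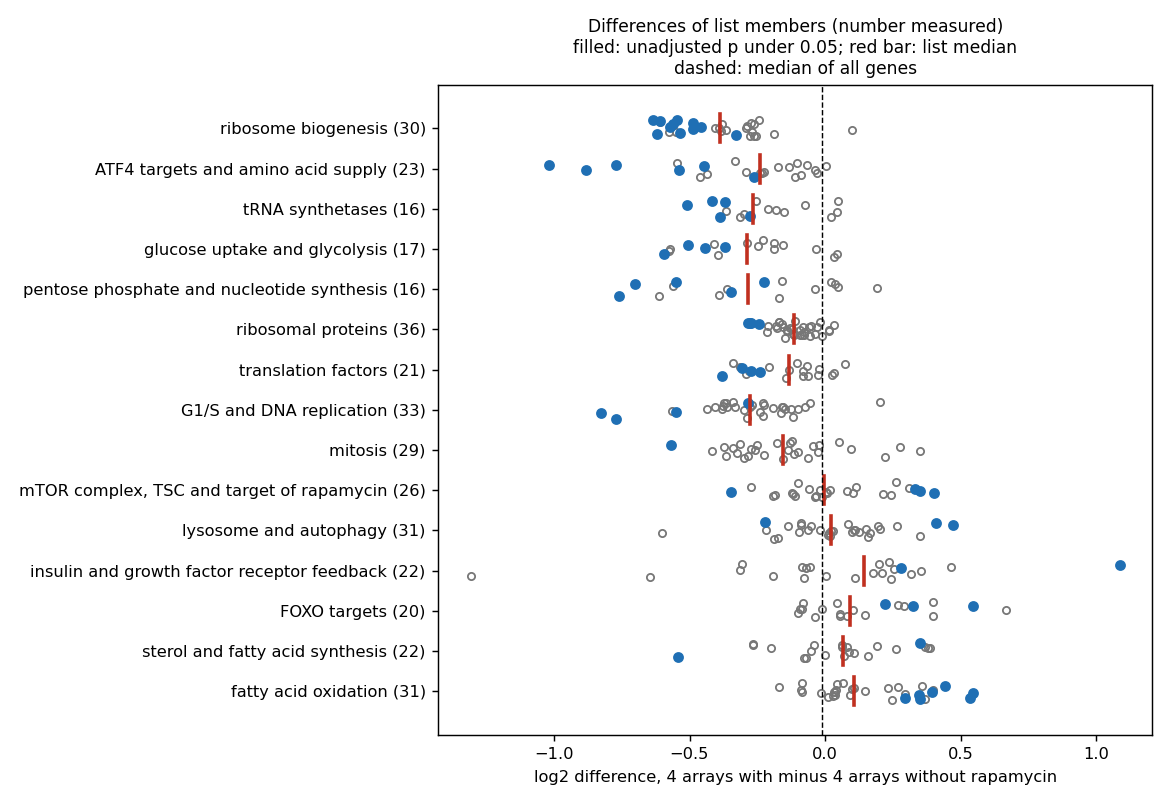
Log2 difference, with minus without rapamycin, of the measured members of 15 gene lists (points, filled at an unadjusted p under 0.05), with list medians as red bars and the median of all genes as a dashed line. Ribosome biogenesis has the lowest of these medians, -0.39, while mTOR pathway genes centre on 0.

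Glycolysis genes, which HIF and MYC drive downstream of mTORC1, were lower in 15 of 17 measured members, with a median of -0.29 and 4 at an unadjusted p under 0.05 (23.5%, against 2.54% of all genes). None had sides without overlap. Ldha, which turns pyruvate into lactate, was at 11.98, 12.40, 11.66 and 11.72 with rapamycin and 12.35, 12.47, 12.32 and 12.37 without (-0.44, SE 0.16, limma adjusted p = 0.866), rapamycin array 2 alone lying among the arrays without the drug. Slc16a3, the lactate exporter, differed by -0.59 (SE 0.22), the liver-type phosphofructokinase gene Pfkl by -0.51 (SE 0.20) and Pgam1 by -0.37 (SE 0.16).

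The glucose transporter gene Slc2a1 was at 11.47, 11.82, 10.94 and 11.09 with rapamycin and 12.49, 11.81, 11.47 and 11.84 without (-0.57, SE 0.26). Vehicle array 1 carried the highest level, and without it the difference was -0.38. Hk2, the inducible hexokinase, differed by -0.29, or by -0.12 without vehicle array 1 and by -0.44 without PD-0325901 array 1, with -0.57 in the absence of PD-0325901 and -0.01 in its presence; the difference between these was 0.56 (unadjusted p = 0.267 in limma, adjusted p with Benjamini-Hochberg 0.9999). The list's median was -0.48 within high-Y and -0.30 within low-Y arrays, and -0.21 without and -0.35 with PD-0325901. Of 22 hypoxia-response genes outside glycolysis 13 were lower, with a median of -0.12 that turned to 0.06 without vehicle array 1. Lox, the collagen cross-linking oxidase, was the single member at an unadjusted p under 0.05 (4.55%, against 2.96% of all genes higher), and its difference was 0.29. The widest difference of the list had the other sign: Ak4, a mitochondrial adenylate kinase, was at 8.50, 9.44, 8.33 and 8.00 with rapamycin and 10.16, 10.06, 8.74 and 9.07 without (-0.94, SE 0.41, unadjusted p = 0.0518 in limma), with overlapping sides. A lower-signal probe set of Ak4 gave -0.36. Bnip3, of mitophagy, differed by -0.44 (SE 0.32) and the lipase inhibitor Angptl4 by 0.61 (SE 0.32).

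Txnip, the brake on glucose uptake that the glucose-sensing factors MondoA and ChREBP induce, was at 12.43, 11.48, 12.06 and 12.18 with rapamycin and 11.34, 11.54, 11.96 and 12.06 without. The sides overlapped, the difference was 0.31 (SE 0.24), and an exact two-sided permutation test over 70 arrangements gave p = 0.229 (0.514 after Benjamini-Hochberg adjustment over the 4 genes so tested; the smallest p this design allows is 0.0286). It was 0.50 without rapamycin array 2 and 0.18 without rapamycin array 1. Arrdc4, its paralogue and co-target, differed by -0.01. Mlxipl, which encodes ChREBP, was at 8.17, 7.90, 7.79 and 7.80 with rapamycin and 7.60, 7.62, 7.73 and 7.65 without (0.26, SE 0.10); rapamycin array 1, the array with the high adipocyte score of 1.74, was its highest.

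Nucleotide and pentose phosphate genes were lower in 12 of 16, with a median of -0.29 and 5 at an unadjusted p under 0.05 (31.2%, against 2.54% of all genes). Ctps, which makes CTP, was at 8.57, 9.44, 9.15 and 8.93 with rapamycin and 9.85, 10.11, 9.53 and 9.41 without (-0.70, SE 0.22); rapamycin array 2 and PD-0325901 array 2 overlapped by a narrow margin. Mthfd2, the mitochondrial folate enzyme induced by ATF4 and mTORC1, differed by -0.76 (SE 0.31), Gart of purine synthesis by -0.55 (SE 0.20) and Dhodh of pyrimidine synthesis by -0.35 (SE 0.10). Cad, whose protein is phosphorylated downstream of mTORC1, differed by -0.17. The median was -0.32 within high-Y arrays and 0.02 within low-Y arrays.

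Genes of the G1/S transition and DNA replication were lower in 32 of 33 members, with a median of -0.28, yet only 4 had an unadjusted p under 0.05 (12.1%, against 2.54%). Ccne1, cyclin E, the activator of CDK2 at S-phase entry, was at 8.28, 8.85, 8.50 and 8.27 with rapamycin and 9.55, 9.32, 9.19 and 8.90 without, with no overlap (-0.77, SE 0.17, limma adjusted p = 0.818), and its difference was -0.86 within high-Y and -0.44 within low-Y arrays. Ccne2 differed by -0.83 (SE 0.31), the ribonucleotide reductase subunit Rrm1 by -0.55 (SE 0.22) and the histone chaperone Chaf1a by -0.28 (SE 0.12). Cdk6 alone was higher, by 0.20.

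These replication genes depended on single arrays. The score was -0.46 on rapamycin array 1 and 0.29 on rapamycin array 2, and the median of -0.28 became -0.17 without the first and -0.39 without the second. It was -0.36 within high-Y arrays and 0.10 within low-Y arrays, and -0.11 with the Y-linked term. Mitosis genes were lower in 24 of 29 (median -0.16), 1 at an unadjusted p under 0.05 (3.45%, against 2.54% of all genes): the condensin subunit Smc2, at -0.57 (SE 0.19). Without rapamycin array 1 the mitosis median was -0.04. Their score ran from -0.45 on rapamycin array 1 to 0.36 on rapamycin array 2, the highest and the lowest array both being with rapamycin, and the median within low-Y arrays was 0.11. The CDK inhibitor gene Cdkn1b (p27) was at 10.08, 10.52, 10.41 and 10.69 with rapamycin and 10.00, 10.22, 10.08 and 10.11 without, rapamycin array 1 lying among the arrays without the drug (0.32, SE 0.13). A lower-signal probe set of Cdkn1b gave 0.04.

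Of the 26 genes measured of the mTOR pathway itself, 13 were higher and 13 lower, with a median of -0.00. At an unadjusted p under 0.05 there were 3 of the 26 higher, Mapkap1, Tsc1 and Ulk1 (against 2.96% of all genes, a larger share), and 1 lower, Eif4e (3.85%, against 2.54%). Mtor was at 9.90, 9.81, 9.78 and 10.04 with rapamycin and 9.65, 9.81, 9.72 and 10.04 without (0.08, SE 0.10; exact permutation p = 0.429), and Fkbp1a averaged 10.72 with and 10.73 without (exact permutation p = 0.943). Rptor, the defining subunit of mTORC1, differed by 0.01, Tsc2 by 0.00 and the translation repressor gene Eif4ebp1 by -0.03. Mapkap1, a core subunit of the other complex, mTORC2, was the single member without overlap (3.85%, against 1.41% of all genes higher). It was at 10.29, 10.22, 10.68 and 10.48 with rapamycin and 9.98, 10.07, 10.15 and 10.13 without (0.33, SE 0.11).

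Tsc1, the partner of tuberin in the brake on mTORC1, differed by 0.35 (SE 0.15), or by 0.22 without combination array 2, and Ulk1, the kinase that starts autophagy, by 0.40 (SE 0.15). Eif4e, the cap-binding factor, differed by -0.35 (SE 0.13). Lower-signal probe sets of Eif4e gave -0.24 and -0.08. Nf1, whose loss the model is used to study, was at 9.98, 10.46, 9.72 and 10.07 with rapamycin and 10.26, 10.49, 10.20 and 10.11 without (-0.21, SE 0.16; exact permutation p = 0.257), with overlapping sides. Rps6kb1 and Trp53, the gene of p53, were not analysed here.

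Insulin receptor signalling genes, on which mTORC1 exerts negative feedback, included 2 of 22 members at an unadjusted p under 0.05, both higher (9.09%, against 2.96% of all genes) and both without overlap (9.09%, against 1.41%). Of the 22, 13 were higher and 9 lower, with a median of 0.15 that was 0.02 without PD-0325901 array 1. The widest difference was negative: Igf2, a growth factor ligand, was at 11.01, 8.47, 7.79 and 9.35 with rapamycin and 11.55, 11.90, 9.79 and 8.61 without (-1.31, SE 0.90), with overlapping sides. Irs1, the adaptor that couples insulin and IGF receptors to PI3K, was at 10.91, 10.54, 11.16 and 10.08 with rapamycin and 10.05, 9.64, 9.75 and 8.88 without. The margin was narrow, 10.08 on combination array 2 against 10.05 on vehicle array 1, and the arrays with low Y-linked transcripts were the lower ones on each side. The difference was 1.09 (SE 0.30, limma adjusted p = 0.839), 0.88 without and 1.30 with PD-0325901, and 1.34 and 1.63 within high-Y and low-Y arrays. With the Y-linked term it was 1.48, at an adjusted p of 1 in that limma fit. A lower-signal probe set of Irs1 gave 0.45. Pik3ca, the catalytic subunit of PI3K, was at 11.19, 11.28, 11.22 and 11.19 with rapamycin and 10.75, 11.06, 11.06 and 10.89 without (0.28, SE 0.09). Irs2, Insr and Igf1r differed by -0.08, 0.18 and 0.11.

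FOXO target genes, which AKT silences, were higher in 14 of 20, with 3 at an unadjusted p under 0.05 (15%, against 2.96% of all genes) and a median of 0.09, which was 0.18 without PD-0325901 array 2. Ccng2, a cyclin of arrested cells, read 9.33, 9.34, 9.36 and 9.35 with rapamycin, a near-constant level, and 8.41, 8.84, 8.81 and 9.14 without (0.55, SE 0.14). Cdkn1b, given above, and Foxo3 itself (0.22, SE 0.09) were the other two; Fbxo32, the atrophy ubiquitin ligase, differed by 0.67 (unadjusted p = 0.12 in limma, adjusted p with Benjamini-Hochberg 0.908). Lysosome and autophagy genes were higher in 19 of 31 with a median of 0.02. At an unadjusted p under 0.05, 2 were higher (6.45%, against 2.96% of all genes) and 1 lower (3.23%, close to the 2.54% of all genes). Wipi1, which marks nascent autophagosome membranes, was at 10.46, 10.16, 10.46 and 10.26 with rapamycin and 10.11, 9.56, 9.80 and 9.99 without (0.47, SE 0.13). Map1lc3a, an LC3 protein of the autophagosome coat, was at 10.07, 9.87, 10.32 and 9.92 with and 9.39, 9.67, 9.73 and 9.75 without (0.41, SE 0.12). These were the 2 members without overlap (6.45%, against 1.41% of all genes higher). Atg5 differed by -0.22, Sqstm1 by 0.11 and Tfeb, the factor that controls lysosomal genes, by 0.11.

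Of 34 genes of the mitochondrial ribosome and of oxidative phosphorylation 26 were lower, 2 at an unadjusted p under 0.05 (5.88%, against 2.54% of all genes): Sdhb, a subunit of succinate dehydrogenase, at -0.31 (SE 0.11) and Mrps12, of the small mitochondrial ribosomal subunit, at -0.24 (SE 0.09). The median of -0.14 was -0.04 within high-Y and -0.01 within low-Y arrays, and -0.08 without vehicle array 1. The coactivator Ppargc1a, which mTORC1 is known to engage with YY1 on these genes, was the single member higher at that threshold (2.94%, against 2.96%): it was at 7.82, 8.55, 7.80 and 7.47 with rapamycin and 6.87, 6.71, 7.05 and 7.04 without, with no overlap (0.99, SE 0.22, limma adjusted p = 0.818). It was highest on rapamycin array 2, the array with the high skeletal muscle score of 1.68, and lowest among the arrays with rapamycin on combination array 2, where that score was 0.72; the part of muscle transcripts in the value was not tested.

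Fatty acid oxidation genes, a list added after values were seen, were higher in 26 of 31, 7 at an unadjusted p under 0.05 (22.6%, against 2.96%), with a median of 0.11 that was 0.17 without rapamycin array 2. Acad12, an acyl-CoA dehydrogenase family member, was at 7.50, 7.70, 7.56 and 7.62 with rapamycin and 7.02, 6.91, 7.17 and 7.09 without (0.55, SE 0.08, limma adjusted p = 0.676). Crot, the peroxisomal carnitine octanoyltransferase, was at 10.29, 10.29, 10.03 and 10.11 with and 9.68, 9.59, 9.85 and 9.83 without (0.44, SE 0.09), with 0.66 in the absence and 0.23 in the presence of PD-0325901. Acad11, Acadl and Acadm of the same family differed by 0.53, 0.40 and 0.29. The list's median was 0.25 without and 0.05 with PD-0325901, and its score was highest on rapamycin array 1, at 0.15, where adipocyte markers were high. It was nearly as high on combination array 1, at 0.13, where the adipocyte score was -0.14. The part of adipocyte transcripts in these scores was not tested.

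Branched-chain amino acid genes, also listed afterwards, had no common direction (14 of 25 higher, median 0.04) but held large single differences. Bcat1, the cytosolic transaminase that opens the pathway and is known from growing tumours, was at 9.55, 7.99, 8.11 and 8.95 with rapamycin and 9.64, 10.37, 10.70 and 9.64 without, a difference of -1.44 (SE 0.40, limma adjusted p = 0.839). Rapamycin array 1, at 9.55, nearly met the side without rapamycin. Aldh6a1, of valine breakdown, was at 9.92, 9.15, 9.70 and 9.35 with and 8.59, 8.64, 8.79 and 9.0 without (0.77, SE 0.18), and Auh, of leucine breakdown, at 9.59, 9.32, 9.33 and 9.54 with and 8.71, 9.04, 8.91 and 8.90 without (0.56, SE 0.10). The other 22 lay between -0.33 and 0.28. Sterol and fatty acid synthesis genes, the SREBP branch, had 1 of 22 members at an unadjusted p under 0.05 in each direction (4.55%, against 2.96% higher and 2.54% lower): Hmgcs1, of the mevalonate pathway, at 0.35 (SE 0.13), and Elovl6, the fatty acid elongase, at -0.54 (SE 0.22), with a list median of 0.07 that was -0.06 without PD-0325901 array 2.

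Outside the lists, the smallest p-values belonged to genes with tight values on both sides. Fam131b, a gene of little-known function, was at 7.82, 7.88, 7.69 and 7.50 with rapamycin and 8.42, 8.80, 8.73 and 8.61 without, a difference of -0.92 (SE 0.12, limma adjusted p = 0.676), and -0.96 and -0.87 within high-Y and low-Y arrays. H2bc4, a histone H2B gene, was at 10.06, 10.29, 9.94 and 10.18 with and 9.41, 9.29, 9.56 and 9.28 without (0.73, SE 0.10). Scnn1a, a subunit of the epithelial sodium channel, was at 7.21, 7.28, 7.22 and 7.09 with and 6.74, 6.67, 6.72 and 6.81 without (0.46, SE 0.07). All 3 had an adjusted p of 0.676 in limma, the smallest of the fit.

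The remaining higher genes of that rank, with sides that do not overlap by the rule that chose them, were Cnnm3, a magnesium transport protein (0.50), Card6, a caspase-recruitment protein (0.80), Cfap69, of cilia and flagella (1.30), Kank2, a cytoskeletal adaptor (0.55), Cox20, an assembly factor of cytochrome oxidase (0.39), Adamts7, a secreted protease (0.60), Tspan17, a tetraspanin (0.61), and Lin52, of the DREAM complex that represses cell cycle genes (0.28). Lin52 was the tightest, at 9.13 to 9.19 with rapamycin and 8.85 to 8.90 without. The remaining lower ones were Rps4l, a ribosomal protein paralogue (-0.62), Jakmip2, a microtubule-binding protein (-0.86), Cdr2 (-0.50), the neural chromatin remodelling subunit Dpf1 (-0.38), the linker histone H1f6 (-0.32), the Aurora A-binding Aunip (-0.47), Rangrf, a Ran-binding protein (-0.43), the peptide receptor Vipr1 (-0.30) and Gusb, the lysosomal glucuronidase (-0.39). A lower-signal probe set of Vipr1 gave -0.08.

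**Figure D5:**
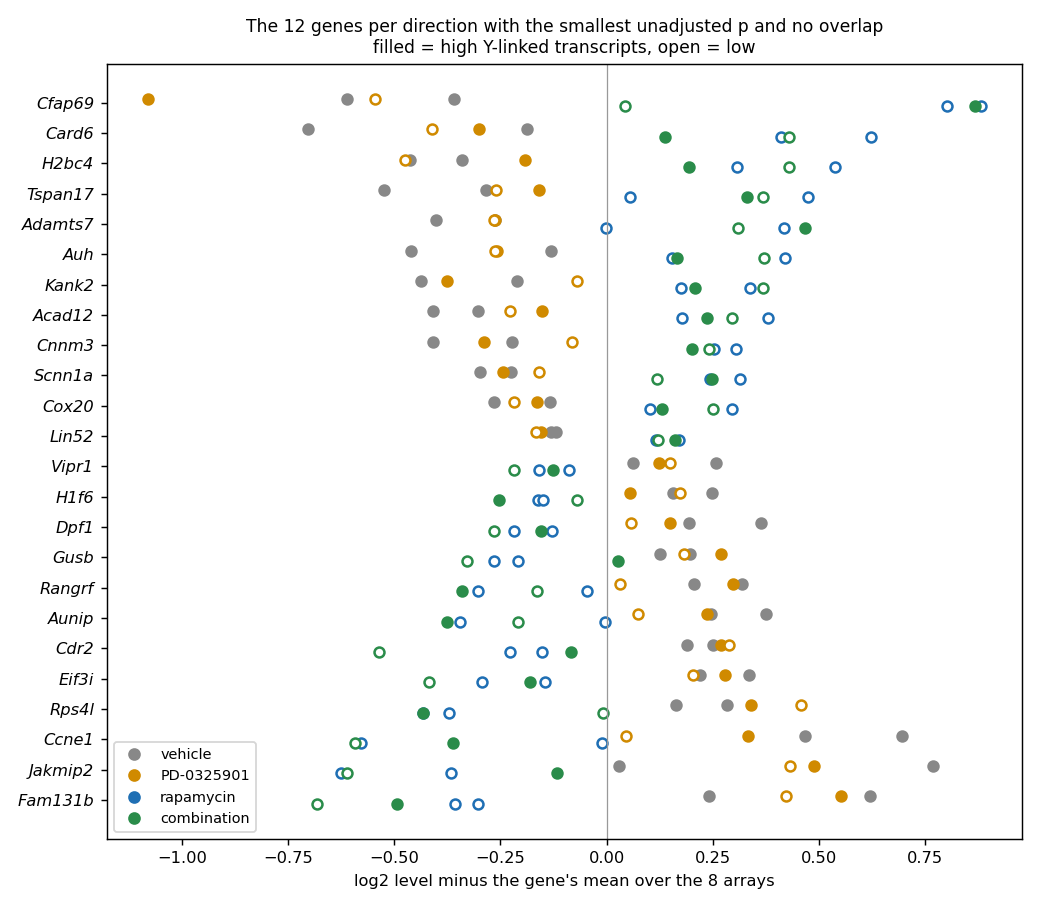
Levels on each array, as log2 minus the gene's mean over the 8 arrays, of the 12 genes per direction with the smallest unadjusted p among those whose sides do not overlap; colours give the treatment and filled points the arrays with high Y-linked transcripts. Fam131b, at 7.50 to 7.88 with rapamycin and 8.42 to 8.80 without, has the smallest p; the absence of overlap was part of how the genes were chosen.

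The largest differences among non-overlapping genes at an unadjusted p under 0.05 came with wide spreads. Cadps, a regulator of dense-core vesicle release, was at 8.46, 8.81, 9.52 and 9.20 with rapamycin and 6.60, 7.28, 8.30 and 7.36 without (1.61, SE 0.37). Sim2, a bHLH transcription factor, was at 9.98, 8.03, 8.65 and 7.17 with and 6.82 to 7.13 without (1.50, SE 0.52); it was high on 3 of 4 arrays with rapamycin, and 0.99 without rapamycin array 1. Wnt10a, a WNT ligand, differed by 1.34 (SE 0.34), Stra6, the retinol-binding protein receptor, by 1.13 (SE 0.25) and Tmem267 by 1.10 (SE 0.38).

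On the lower side, Kcnip1, a potassium channel-interacting protein, was at 7.36, 6.34, 8.07 and 7.63 with rapamycin and 8.54, 9.05, 8.21 and 9.32 without (-1.43, SE 0.39), and the retrotransposon-derived Rtl3 differed by -1.13 (SE 0.40). Tdrd1, a germline Tudor protein, was at 6.18 to 6.31 with rapamycin and at 6.48, 8.51, 6.51 and 7.72 without, so its difference of -1.07 (SE 0.43) rested on vehicle array 2 and PD-0325901 array 2; without vehicle array 2 it was -0.67. Gas2, a cytoskeletal protein of growth-arrested cells, was at 10.22 on vehicle array 2 and at 7.61 to 8.60 on the other 7; its difference was -0.995 (SE 0.41), or -0.56 without that array.

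Immune and stromal lists had few members at an unadjusted p under 0.05. Among cytokines 1 of 29 reached it (3.45%, close to the 2.54% of all genes lower), with 12 higher, 17 lower and a median of -0.04. It was Tnf, at 7.37, 7.92, 7.43 and 7.48 with rapamycin and 8.28, 7.94, 7.93 and 7.71 without (-0.41, SE 0.16). Il1b was at 8.29, 8.27, 7.16 and 7.53 with and 9.95, 9.44, 7.91 and 7.87 without (-0.98, SE 0.52), and the difference was -0.59 without vehicle array 1. It was lower with rapamycin than without both in the absence and in the presence of PD-0325901, but the 2 arrays with PD-0325901 alone lay below the 2 with rapamycin alone, so the sides overlapped. Wider differences with overlapping sides were those of the chemokine Ccl8 (-1.17, SE 0.71) and the prostaglandin synthase Ptgs2 (-1.0, SE 0.73), and the widest in the other direction was that of Lcn2, a siderophore-binding protein (0.90, SE 0.77), which was at 10.97 on rapamycin array 1 and at 7.24 to 8.88 on the other 7. Of 21 interferon-response genes, 8 were higher and 13 lower (median -0.05). The 1 at an unadjusted p under 0.05 (4.76%, against 2.54% of all genes lower) was Cxcl10, an interferon-induced chemokine. It was at 9.22, 8.66, 9.15 and 10.38 with rapamycin and 10.61, 10.43, 10.67 and 9.65 without (-0.98, SE 0.38). Combination array 2, the highest array with rapamycin for Cxcl10, had interferon and T and NK cell scores of 0.74 and 0.998, the highest of all arrays.

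Macrophage markers were lower in 12 of 14 (median -0.10), neutrophil markers in 10 of 13 (median -0.09) and T and NK cell markers in 7 of 14 (median -0.02), with 0 at an unadjusted p under 0.05 in each. The macrophage median was 0.29 within high-Y and -0.59 within low-Y arrays, where PD-0325901 is not balanced. The macrophage score was -0.12 and -0.35 on the vehicle arrays and -0.18 and -0.21 on the rapamycin arrays. It was 0.28 and 0.42 on the PD-0325901 arrays and 0.28 and -0.12 on the combination arrays. Skeletal muscle markers were higher in 12 of 12 with a median of 0.57, which was 0.07 without rapamycin array 2, and adipocyte markers in 8 of 10 with a median of 0.49, which was 0.04 without rapamycin array 1; neither list had a member at an unadjusted p under 0.05. Of 10 neuronal markers 9 were lower and 1 higher (median -0.14). Tubb3, a neuronal tubulin, was the single one at an unadjusted p under 0.05 and without overlap (10%, against 2.54% and 1.94% of all genes lower), at 7.49, 7.48, 7.34 and 7.30 with rapamycin and 7.90, 7.78, 8.51 and 7.90 without (-0.62, SE 0.16). The higher one was Stmn2, a growth-associated tubulin-binding protein, with a wider difference of 1.77 (SE 1.27, unadjusted p = 0.20 in limma); it was at 8.32, 11.61, 12.57 and 10.46 with rapamycin and 7.52, 6.90, 9.56 and 11.90 without, so the sides overlapped. Among ERK output genes Dusp7, an ERK phosphatase, differed by 0.30 (SE 0.10) and Spry2, a feedback inhibitor of the pathway, by -0.55 (SE 0.22), with a list median of -0.06. Matrix genes had a median of 0.11 (18 of 26 higher), and ER chaperones, immediate early genes and antigen presentation genes had 0 members at an unadjusted p under 0.05, with medians of -0.02, -0.07 and -0.08.

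Whether the rapamycin difference depended on PD-0325901 was tested as the difference between the combination against PD-0325901 and the rapamycin against vehicle contrasts. The interaction was called for 0 of 19938 genes by limma with Benjamini-Hochberg adjustment, with a smallest adjusted p of 0.9999 and 434 genes at an unadjusted p under 0.05 (2.18%; 206 positive, 228 negative). Tnfsf18, the ligand of the T-cell receptor GITR, was at 6.22 and 6.24 with rapamycin, 6.18 and 6.05 with vehicle, 7.32 and 7.37 with PD-0325901 and 6.37 and 6.13 with both, so it was high in the PD-0325901 group alone (interaction -1.21, unadjusted p = 0.00034). Hoxa2, a homeobox gene, was at 7.73 and 8.19 with vehicle, 7.65 and 6.73 with rapamycin, 6.49 and 6.66 with PD-0325901 and 8.78 and 8.21 with both (interaction 2.69). Gal3st4, a sulfotransferase, and Fhod1, a formin, had interactions of 0.93 and 0.99, and Rbmx, an RNA-binding protein, and Cpne4, a copine, of -1.16 and -1.0. Rbmx was at 10.04 on both rapamycin arrays and at 8.82 to 9.28 on the other 6.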

How the data were processed

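Log2 expression values, 1 per probe set and array, were taken as the authors deposited them for 8 Affymetrix arrays; the log2 unit was read from the values. Per the labels' protocols, RNA was extracted with Trizol and RNeasy, then biotin-labelled after amplification (NuGEN Applause WT-Amp ST). The software and normalization behind them: not given in the sources used here. Of 35512 probe sets, 21789 carried a single gene symbol in the platform annotation, 1621 several and 12101 none. The probe set with the highest mean stood for each gene, giving 19938 genes (999 with several probe sets), without a filter on low values. The number of arrays limits the precision.

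Groups came from the sample titles. limma 3.58.1 (lmFit, eBayes, two-sided) in R 4.3.3 compared the 4 arrays with and the 4 without rapamycin, with Benjamini-Hochberg adjustment over all genes; a fit of 4 group means gave rapamycin against vehicle, the combination against PD-0325901 and the difference of these. The test was checked on simulated data. Standard errors are limma's. The 4 named exact permutation tests used differences of means.

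The comparison, the 41 gene lists (728 of 799 members measured) and the rules were chosen with earlier results of these data known. The fatty acid and branched-chain amino acid lists, the Y-linked pattern, the Olfr genes in the closing section and the shorter promoter motif were added after values were seen. Named genes were the 12 smallest p per direction without overlap and the 6 largest differences per direction (predicted genes and olfactory receptors not named), up to 4 members of each pathway list and 3 of each cell type list by p, the mTOR, glucose and Nf1 genes, and the 3 smallest interaction p per direction; other list members named to complete a group, such as Psat1, Atf4, Ncl and Fbl, were chosen after their values were seen. The main fit did not treat arrays of the same number as paired. Correlations of the deviations between groups ran from -0.28 to 0.18. With 2 arrays per group, these cannot settle whether arrays of the same number share a batch. Alternatives were quantile normalization, median centring, a level filter, the mean of all probe sets, a variance trend, an adjusted p of 0.1, additive and 4-group models, the replicate block, and leaving out each array.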

Additional observations from a re-analysis of the deposited data

Results flagged for a closer look

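Dixon's criterion was applied to 108 sets of 4 arrays (11 genes and 43 gene lists, each on both sides). In 3 list scores, 1 array lay far from the other 3. That is a smaller share than the about 1 in 20 that chance gives. The adipocyte score of rapamycin array 1 was 1.74, against -0.32 to -0.14 on the other arrays with rapamycin. The erythroid score of PD-0325901 array 2 was 1.20, against -0.26 to -0.10 on the other arrays without rapamycin. The score of branched-chain amino acid breakdown on PD-0325901 array 1 was 0.0901, against -0.03 on each of the other 3.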

How the results depend on the processing

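The count of genes past an adjusted p of 0.05 with against without rapamycin in limma with Benjamini-Hochberg adjustment was 0 in every alternative run, including the replicate block (0 genes) and leaving out each array in turn (0 to 0). At an unadjusted p under 0.05 it was 773 without PD-0325901 array 1 and 1484 without rapamycin array 2. The count for the difference of the rapamycin effect with and without PD-0325901 was 0 with the replicate block and 0 to 2 when single arrays were left out; the cause was not tested. The 2, both without vehicle array 2, were the olfactory receptors Olfr846 and Olfr847 (limma adjusted p = 0.009772), at 9.49 and 10.39 on vehicle array 1, 5.65 and 6.54 on vehicle array 2 and 4.61 to 5.10 on the other 6. Of 199 named genes, 196 kept their sign under quantile normalization and under median centring, 199 with the replicate block, 190 with the Y-linked term, 191 to 197 without single arrays and 189 without both rapamycin arrays. Of 43 list medians, 36 kept theirs with the Y-linked term, 33 to 42 without single arrays and 31 without both rapamycin arrays.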
